A study of Mus musculus with 23 samples.

Results

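The proteasome subunit genes are the protein-coding genes of the mouse annotation (GENCODE M21 on mm10) whose symbol starts with Psm, a letter from a to g and a number. This rule gave 50 of the 21938 protein-coding genes on chromosomes 1 to 19, X and Y, and used no measured value. They were described by the nucleotides at which CTCF was crosslinked to RNA inside their bodies, on their own strand. Of the 50 genes, 10 lie on chromosome 11 and are also shown apart, because the genes of that chromosome as a whole had a ratio of their own between the WT and the mutant lists. 49 of the 50 encode subunits, activators, an inhibitor or assembly factors of the proteasome. The remaining gene, Psmc3ip, matches by name alone and encodes a cofactor of meiotic recombination.

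The proteasome is the large protease that degrades proteins tagged with ubiquitin in the nucleus and the cytoplasm. Its 20S core is a barrel of alpha rings, which gate the entrance, and beta rings, which hold the catalytic sites. The 19S particle caps the barrel: a base with a ring of ATPases unfolds the substrate, and a lid removes the ubiquitin. Other activators, such as the PA28 proteins and PA200, can cap the core instead, and dedicated chaperones assemble both parts. Most of the genes are expressed in every cell type, while a few encode subunits particular to immune cells, the thymus or germ cells.

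The data are iCLIP2 libraries of Flag-Halo-tagged CTCF from nuclei of mouse E14 cells, a line of embryonic stem cells (ESCs). In all groups endogenous CTCF carried the AID2 degron and was degraded with 1 µM 5-Ph-IAA, while 1 µg/mL doxycycline induced the rescue protein for 24 hours. AID2 degradation itself runs through the proteasome, in the controls too. The rescue was either CTCF-WT or CTCF-ΔZF1, which lacks part of the first zinc finger, and each came from 1 clonal line with the transgene at the Tigre locus. Neural progenitor cells (NPCs) were ESCs of the same lines differentiated for 2 days. Cells were crosslinked with 254 nm light at 400 mJ/cm2, and the noXL controls, made from the WT line alone, received no UV. The 23 libraries comprised 3 of NPC WT and 4 of every other group.

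Sites were called on the pooled libraries of a group, so each group is 1 list of single nucleotides with a score from the caller PureCLIP. No replicate error exists for any value here, no difference between conditions was tested, and intervals are 95% Wilson intervals that cover counting error only. The number of reads behind each list is unknown. The lists ran from 107227 sites in NPC noXL to 451137 in ESC WT. Site counts also rise with the amount of a gene's RNA. The study measured RNA by RNA-seq in WT and ΔZF1 cells of both types, but those values were not used here. Fewer cells of a type cannot be told apart from less RNA per cell. The labelled cell types were read against their markers: the stem cell gene Zfp42 held 164 ESC WT and 11 NPC WT sites, and Esrrb 460 and 0. Nes, a neural progenitor gene, held 2 and 28, whereas Sox1, Pax6, Hes5 and Zic1 held 0 in both WT lists. The 6 endoderm and mesoderm markers read held 0 sites in every list. Ctcf, the gene whose product was replaced, held 109, 68 and 40 sites in ESC WT, ΔZF1 and noXL, and 28, 23 and 17 in the NPC lists.

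The following 21-nt RNA windows show the sequence around called sites of these genes, some of them also called without UV. They were read from the GRCm38 reference (the same build as mm10) on the strand of the gene. Picked by score or by list, they need not be typical of all member sites. The nucleotide of the site is in capitals. The first set is the site with the highest ESC WT score in each of the 6 members with most ESC WT sites.
Psme4, chr11:30771764-30771784, plus strand, 5′ UTR: ggcugcagcgUcaccagaaga
Psmd11, chr11:80471809-80471829, plus strand, 3′ UTR: ucggaaaguuUuuaacccuca
Psmd14, chr2:61711768-61711788, plus strand, 5′ UTR: ggcgacucuuUugaauggaau
Psmc6, chr14:45329816-45329836, plus strand, 5′ UTR: ccggcaucccCuaugagcgac
Psmd1, chr1:86064629-86064649, plus strand, 5′ UTR: ggguccucggCuagaagcgag
Psmd2, chr16:20651692-20651712, plus strand, 5′ UTR: cagcaggccgGcaguaguggc
Their ESC WT scores ran from 25.1 in Psme4 to 56.2 in Psmd2. The sites of Psmd1 and Psmd2, at a cytidine and a guanosine, were also called in ESC noXL, at percentiles 99.1 and 49.5 of that list by score. The sites of Psme4, Psmd11, Psmd14 and Psmc6 were not called in either noXL list, but ESC noXL had a site 3 nt from that of Psme4 and 2 nt from that of Psmc6.

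The second set holds positions called in all 4 UV lists and in neither noXL list. There were 10 such positions in 9 members, 9 of them at a uridine, and the 6 with the highest scores by rank within the lists are shown because they recur in both cell types and with both proteins.
Psmb4, chr3:94886455-94886475, minus strand, coding exon: uuccaguauuUgaaacaaguu
Psmc4, chr7:28042960-28042980, minus strand, coding exon: ucagcugcauUuauccgugug
Psma2, chr13:14623599-14623619, plus strand, coding exon: gagcuuacuuUgccuggaagg
Psmb2, chr4:126684128-126684148, plus strand, coding exon: acaagauguuUaagaugagug
Psmc5, chr11:106262587-106262607, plus strand, coding exon: cuggacauuuUgaaaauccac
Psmd1, chr1:86075973-86075993, plus strand, coding exon: uggaugucuuUgagaagacua
In each of these windows the site is a uridine that follows at least 1 other uridine, and the windows hold 6 to 8 uridines. Psmb4 and Psma2, a beta and an alpha subunit of the core, stood at percentiles 87.9 and 79.3 of the ESC ΔZF1 list by score and both at 99.2 in NPC ΔZF1. The nearest noXL site to any of the 6 was 8 nt away, in Psmb2.

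The third set holds positions called in both noXL lists, which mark the background. There were 10 in 10 members, 5 of them at a uridine, and the 4 with the highest scores by rank are shown.
Psmd5, chr2:34870931-34870951, minus strand, 5′ UTR: aggugggcggGcagacgggag
Psmd3, chr11:98682555-98682575, plus strand, 5′ UTR: uggcauuuccCagaagcccca
Psmb2, chr4:126677655-126677675, plus strand, 5′ UTR: cacccccagcUcaguccgggu
Psmg1, chr16:95990908-95990928, minus strand, 5′ UTR: cgcgcaugcgCugucuggccg
All 4 lie in 5′ UTRs, and 3 of the 4 sites are not at a uridine. The sites of Psmd5, Psmd3 and Psmb2 were also called in all 4 UV lists.

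CTCF sites were found in nearly every proteasome gene. For ESCs, the WT list had 2742 sites in the members, the ΔZF1 list 935 and the noXL list 760. For NPCs the counts were 1449, 690 and 522. At least 5 sites were present in 46 members in ESC WT, which is 92% against 35.6% of protein-coding genes, and in 44 members in NPC WT, or 88% against 33.4%. Without UV the share was still 74% of members in the ESC list, where it was 27.8% of protein-coding genes, and 54% in the NPC list, where it was 22.9%. As a share of the sites inside genes, the members took 0.639% with WT, 0.429% with ΔZF1 and 0.504% without UV in ESCs, and 0.630%, 0.450% and 0.512% in NPCs. Among sites inside genes the members' share was thus lowest in the ΔZF1 list of both cell types.

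**Figure D1:**
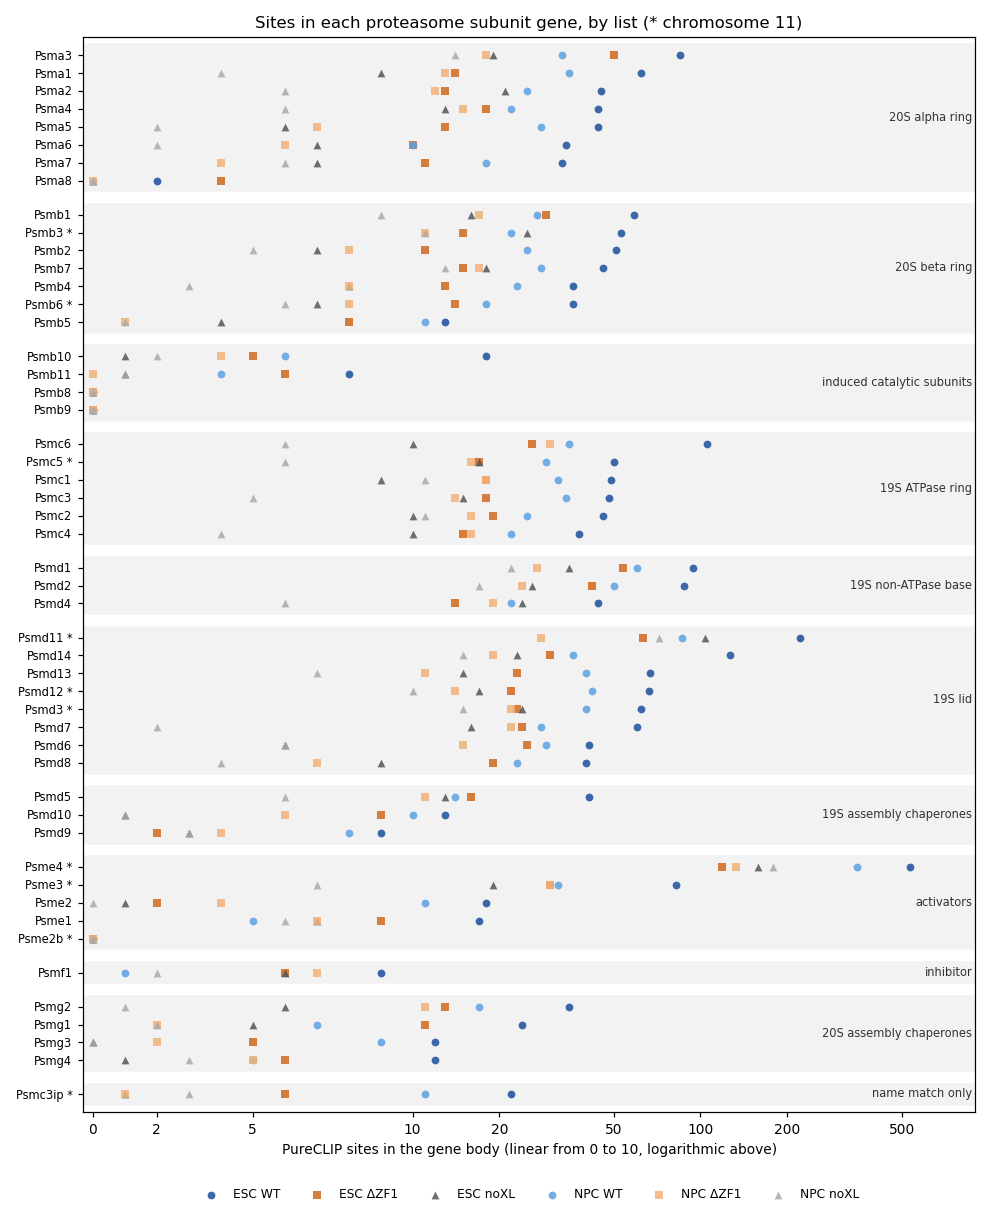
Sites in the body of each of the 50 genes in the 6 lists, grouped by role; the axis is linear from 0 to 10 and logarithmic above, and an asterisk marks chromosome 11. In nearly all genes the ESC WT point lies farthest right, and Psme4, with 533 sites in ESC WT, lies above all other members in every list.

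The alpha ring genes, Psma1 to Psma8, held 349 ESC WT and 171 NPC WT sites. Psma3, which had the highest ESC WT count among them, held 85 in ESC WT, 50 in ΔZF1 and 19 in noXL, and 33, 18 and 14 in the NPC lists. Psma8, the alpha subunit of germ cells, was called at 2 nucleotides with WT and 4 with ΔZF1 in ESCs and at 0 in the other lists.

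The 7 constitutive beta ring genes, which include the catalytic subunits Psmb5, Psmb6 and Psmb7, held 294 ESC WT and 154 NPC WT sites. On chromosome 11, Psmb3 held 53, 15 and 25 sites in ESC WT, ΔZF1 and noXL and 22, 11 and 11 in NPCs. Psmb6 held 36, 14 and 7 in ESCs and 18, 8 and 6 in NPCs. Of the catalytic subunits that replace them in immune cells and in the thymus, Psmb8 and Psmb9 held 0 sites in all lists. Psmb10 held 18 in ESC WT, more than the 13 of Psmb5, and 6 in NPC WT. Psmb11, the thymus subunit, held 8 and 4, all of them intronic and close together.

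The 6 ATPases of the base, Psmc1 to Psmc6, held 336 ESC WT and 177 NPC WT sites. Psmc6, which had the highest ESC WT count among them, held 105, 26 and 10 sites in ESC WT, ΔZF1 and noXL and 35, 30 and 6 in NPCs. Its ΔZF1 counts lay between WT and noXL in both cell types, near noXL in ESCs and near WT in NPCs. Psmc5, on chromosome 11, held 50, 17 and 17 in ESCs and 29, 16 and 6 in NPCs.

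Of the non-ATPase base genes, the scaffold subunits Psmd1 and Psmd2 were among the 8 members with most ESC WT sites. Psmd1 held 94, 54 and 35 sites in ESC WT, ΔZF1 and noXL and 60, 27 and 22 in NPCs. Psmd2 held 88, 42 and 26 in ESCs and 50, 24 and 17 in NPCs. The ubiquitin receptor Psmd4 held 44, 14 and 24 in ESCs and 22, 19 and 6 in NPCs, so in ESCs its ΔZF1 count was below noXL and in NPCs above it.

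The 8 lid genes held 684 ESC WT and 324 NPC WT sites. Psmd11, a lid subunit on chromosome 11, held 221, 63 and 104 sites in ESC WT, ΔZF1 and noXL and 86, 28 and 72 in NPCs. In both cell types its ΔZF1 count was the lowest of the 3. Psmd14, the deubiquitinase of the lid, held 127, 30 and 23 in ESCs and 36, 19 and 15 in NPCs. Psmd3 held 62, 23 and 24 in ESCs and 40, 22 and 15 in NPCs, and Psmd12 held 66, 22 and 17 and 42, 14 and 10. Both also lie on chromosome 11.

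Among the activators, Psme4, which encodes PA200, a nuclear cap of the core, held more sites than any other member in every list: 533, 119 and 158 in ESC WT, ΔZF1 and noXL and 351, 133 and 178 in NPCs. As in Psmd11, ΔZF1 had fewer sites than noXL. Psme3, the nuclear PA28 gene, also on chromosome 11, held 82, 30 and 19 in ESCs and 32, 30 and 7 in NPCs. Psme2b, a chromosome 11 copy of Psme2 with a single short body, held 0 sites in all lists. Psme2 and its copy may share reads, and multi-mapping in such pairs was not examined here. The inhibitor gene Psmf1 held 9 ESC WT sites and 1 NPC WT site. The 3 chaperones of the 19S base, Psmd5, Psmd9 and Psmd10, held 63 and 32, and the 4 core chaperones, Psmg1 to Psmg4, held 83 and 38. In Psmg3, 78.6% of the sites, summed over the lists, overlapped a second gene of that strand, and the RNA they come from cannot be told apart. Psmc3ip held 22, 6 and 1 in ESCs and 11, 1 and 3 in NPCs.

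Per length of exon, the roles differed less than their site counts. In ESC WT the activators held 16.9 exonic sites per kb of exon, the ATPases 15.1, the non-ATPase base 14.2, the beta ring 13.8, the lid 13.1, the alpha ring 11.9 and the core chaperones 10.4. The 19S chaperones held 3.51, the inhibitor 1.40 and the induced catalytic subunits 1.33, although Psmb10 alone held 10.6. The first 7 roles thus lay within 10.4 to 16.9, and the last 3 stood well below them.

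Coding exons held more sites than any other class in the 4 UV lists, and introns did in both noXL lists. In ESC WT, 48.6% (46.7 to 50.4) of the members' sites were in coding exons, against 36.3% of sites in all genes. The 3′ UTR held 5.58% (4.78 to 6.50) against 16.4%, the 5′ UTR 6.05% against 7.92% and introns 36.5% (34.8 to 38.4) against 33.4%. NPC WT was alike, with 53.8% (51.3 to 56.4) in coding exons against 43.3% and 4.76% in 3′ UTRs against 15.9%. Of each base, coding exons and 5′ UTRs were the densest: ESC WT held 25.2 sites per kb of coding exon, 17.7 per kb of 5′ UTR, 3.28 per kb of 3′ UTR and 1.10 per kb of intron. In NPC WT the values were 14.7, 10.3, 1.48 and 0.489. In noXL introns held 48.6% of ESC and 57.1% of NPC member sites, coding exons 37.2% and 32.0%, and the 3′ UTR 2.89% and 3.45%.

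**Figure D2:**
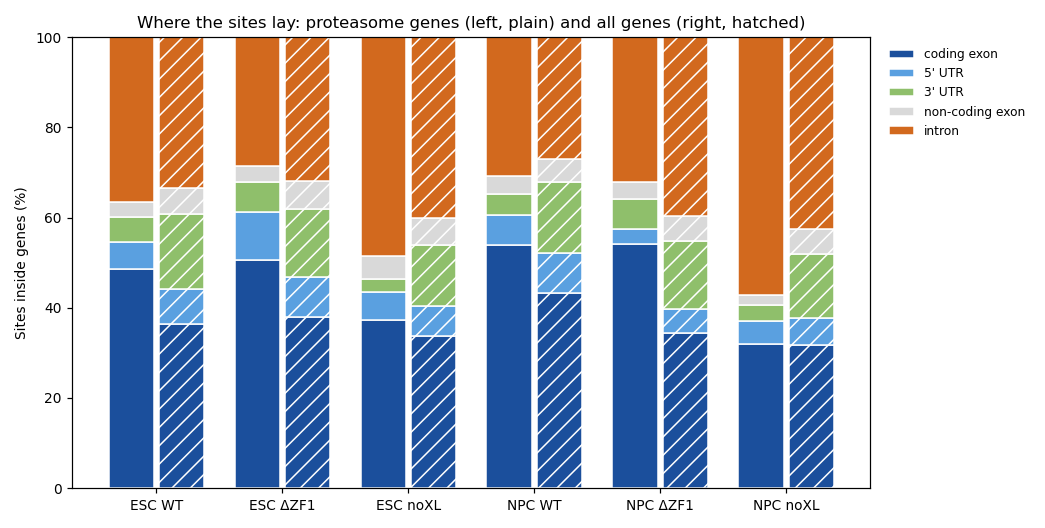
Share of sites inside genes by class, for the proteasome genes (plain bars) and all genes (hatched bars) in each list. The 3′ UTR share of the proteasome genes is below that of all genes in all 6 lists, and the coding exon share is above it in all 6, by least in NPC noXL, with 32.0% and 31.8%.

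In ESCs any exon held 63.5% (61.6 to 65.2) of member sites with WT, 71.4% (68.5 to 74.2) with ΔZF1 and 51.4% (47.9 to 55.0) without UV. The intervals of these 3 lists did not overlap, but without Psme4 those of WT, at 70.6% (68.7 to 72.5), and ΔZF1, at 73.5% (70.4 to 76.4), did. In NPCs the shares were 69.2% (66.7 to 71.5) in WT, 67.8% (64.3 to 71.2) in ΔZF1 and 42.9% (38.7 to 47.2) in noXL, where WT and ΔZF1 overlapped and noXL stood below both. Without Psme4, NPC WT was at 82.0% (79.6 to 84.1) and NPC ΔZF1 at 75.4% (71.7 to 78.8), which did not overlap. Chromosome 11 members had fewer exonic sites than the others in all 6 lists: 47.1% against 74.8% in ESC WT, 66.3% against 74.0% in ESC ΔZF1, and 46.8% against 86.4% in NPC WT. In noXL the values were 33.3% against 68.8% in ESCs and 25.0% against 68.7% in NPCs.

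That gap lay largely in the introns of Psme4 and Psmd11. With these 2 genes left out, the chromosome 11 members had 77.6% of their ESC WT sites in exons, above the 74.8% of the others, and 85.6% in NPC WT, near the 86.4%. In ESC noXL the gap narrowed, but they stayed below, at 56.4% (47.0 to 65.3) against 68.8%. In ESC WT, 66.2% (62.1 to 70.1) of the sites of Psme4 and 71.9% (65.7 to 77.5) of those of Psmd11 were intronic, against 24.6% (22.8 to 26.6) in all other members together. The introns of Psme4, 100.3 kb in all, held 353 WT, 51 ΔZF1 and 114 noXL sites in ESCs, and 249, 85 and 160 in NPCs. Its exons held 180, 68 and 44 in ESCs and 102, 48 and 18 in NPCs. In its introns ΔZF1 thus had fewer sites than noXL, and in its exons more. Psmd11 showed the same order: 159, 35 and 86 intronic sites in ESCs and 59, 14 and 58 in NPCs, beside 62, 28 and 18 exonic sites in ESCs. In NPCs its exons held 27, 14 and 14.

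**Figure D3:**
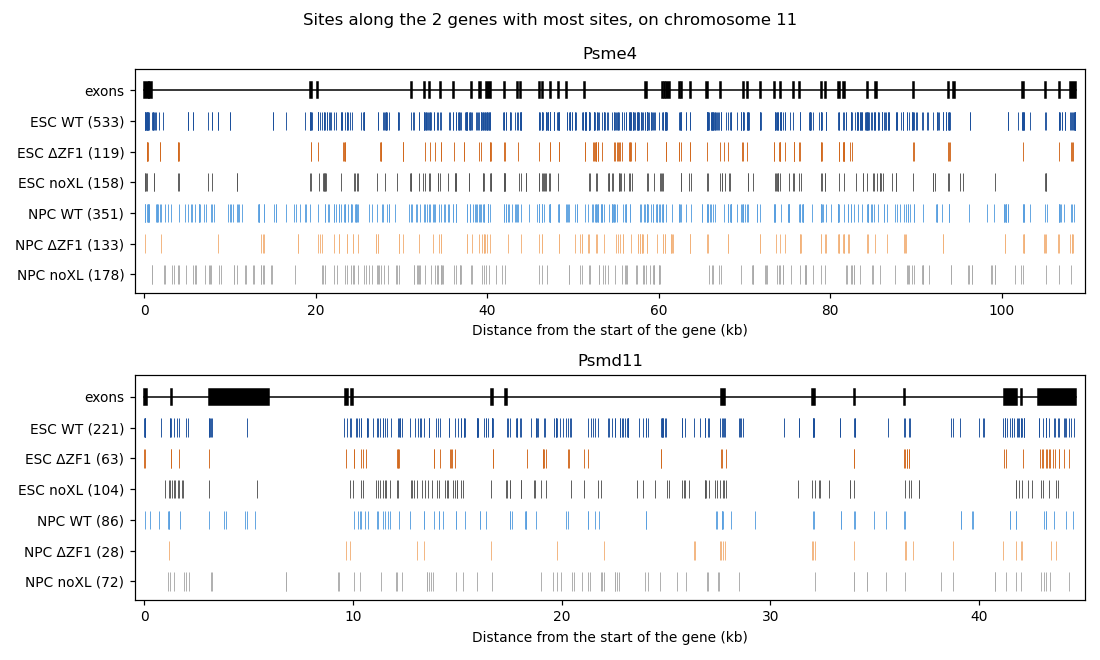
Each vertical line is a site of Psme4 (top) or Psmd11 (bottom) at its distance from the start of the gene in kb, by list, with exons as black boxes on the gene line. Sites run along the introns in the WT and noXL lists, and the ΔZF1 rows are thinner there, with 51 intronic sites in Psme4 in ESC ΔZF1 against 353 in ESC WT.

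Upstream of exon starts the share of intronic sites differed between lists. Of the intronic sites, 4.89% (3.72 to 6.41) in ESC WT lay within 50 nt upstream of an exon start, against 10.1% (7.04 to 14.3) in ESC ΔZF1 and 10.0% (7.36 to 13.5) in ESC noXL. The values over all genes were 4.10%, 4.99% and 5.12%. In NPCs the shares were 3.80% (2.39 to 6.01) in WT, 9.01% (5.91 to 13.5) in ΔZF1 and 3.69% (2.07 to 6.49) in noXL. These NPC intervals overlap, and the values over all genes were 4.43%, 3.75% and 4.04%. The 2 ΔZF1 values rest on 27 and 20 sites. Within 50 nt downstream of an exon end the shares were 2.79% (1.94 to 4.01), 6.37% (4.01 to 9.96) and 4.61% (2.90 to 7.25) in the ESC lists, in the same order. In the NPC lists they were 2.46%, 2.70% and 3.02%, with intervals that overlap. Over all genes they were 2.45%, 3.07% and 3.15% in ESCs and 2.72%, 2.56% and 2.66% in NPCs.

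Exonic sites had higher PureCLIP scores than intronic ones. The median member site stood at the 56.5th percentile of its list in ESC WT and at the 56.4th in NPC WT. Exonic sites stood at 64.4 and 63.3 and intronic ones at 42.5 and 41.8. In ESC ΔZF1 exonic and intronic sites stood at 57.1 and 48.0, and in NPC ΔZF1 at 53.8 and 51.8. All member sites stood at 48.8 in ESC noXL and 48.1 in NPC noXL. Of the ESC WT sites, 12.5% were above the 90th percentile of the list by score, and of the NPC WT sites 13.3%.

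UV crosslinking showed in the base under the site. Uridine is the base that UV joins to protein most readily, and 65.0% (63.2 to 66.8) of member sites in ESC WT and 68.3% (65.8 to 70.6) in NPC WT were uridines. In noXL the shares were 28.6% (25.5 to 31.9) and 27.6% (23.9 to 31.6), near the 26.9% of the members' exon sequence and the 31.2% of their intron sequence. ΔZF1 lay between them, at 48.9% (45.7 to 52.1) in ESCs and 62.9% (59.2 to 66.4) in NPCs. Over all genes the shares were 60.6%, 49.2% and 28.3% in ESC WT, ΔZF1 and noXL and 64.6%, 59.0% and 27.9% in NPCs. The members thus exceeded all genes by a few points in both WT lists and in NPC ΔZF1. The order held in most members. All 23 members with at least 10 sites in both lists had more uridine in ESC WT than in ESC noXL, as did all 12 in NPCs, and 30 of 35 had less in ESC ΔZF1 than in ESC WT. In NPCs 20 of 27 had less in ΔZF1.

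**Figure D4:**
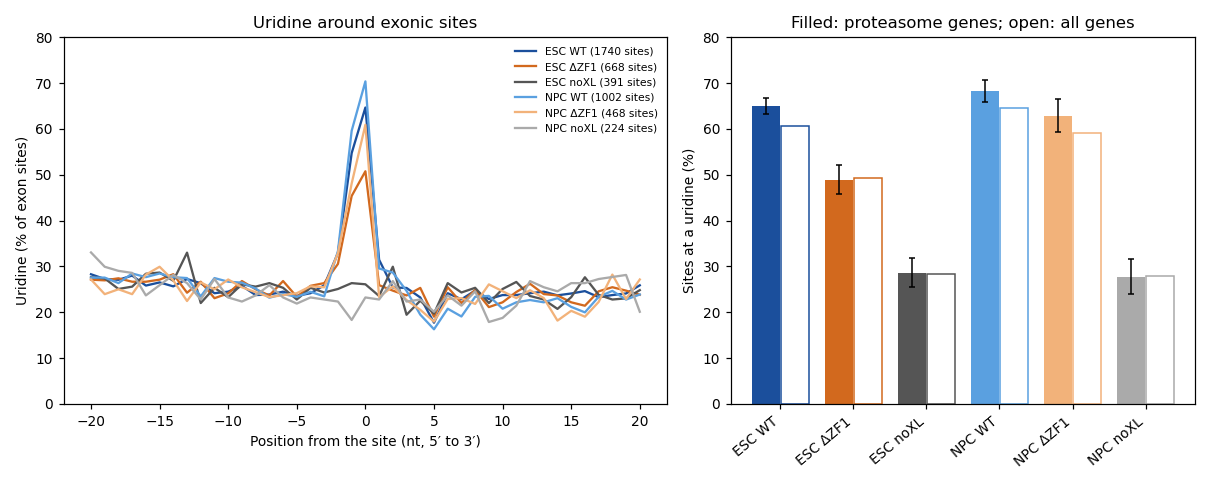
Left, percent of exonic member sites with a uridine at each position from 20 nt upstream to 20 nt downstream of the site; right, percent of all member sites (filled, with 95% intervals) and of sites in all genes (open) at a uridine. WT and ΔZF1 peak at the site and 1 nt upstream, with 64.7% at the site in ESC WT, and both noXL lines stay flat.

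Around exonic sites the uridine share rose 1 nt upstream, to 54.7% (ESC WT) and 59.6% (NPC WT), while 1 nt downstream it was 31.4% and 29.5%. Beyond 10 nt it was 25.4% and 24.9%. In ESC ΔZF1 it was 45.4% 1 nt upstream and 50.7% at the site, and in ESC noXL 26.3% and 26.1%. The site was thus often preceded by another uridine, as in the second set of windows above.

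Split by base, the excess over noXL was larger at uridine than at other bases. In ESC WT there were 8.22 times (7.14 to 9.46) as many uridine sites as in ESC noXL and 1.77 times (1.59 to 1.96) as many sites at other bases. In NPC WT the values were 6.87 (5.77 to 8.18) and 1.22 (1.06 to 1.39). ESC ΔZF1 held 2.11 times (1.79 to 2.47) as many uridine sites as noXL and 0.880 times (0.779 to 0.995) as many others. NPC ΔZF1 held 3.01 times (2.50 to 3.64) and 0.677 times (0.578 to 0.794). These ratios are not scaled to the size of the lists.

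The comparison of ΔZF1 with WT asks which RNA contacts depend on the first zinc finger. The members had fewer ΔZF1 sites than the size of the lists alone would give. In all, ESC WT held 2.93 times and NPC WT 2.10 times as many member sites as ΔZF1. To allow for list size, the log2 ratio of a gene's sites (with 1 added to each count) was scaled to the ratio of all sites inside genes, so that a gene that follows its list stands at 0. A gene was compared when the 2 lists together gave it 20 or more sites, and a ratio at or past 1 or -1 was counted as past the limits. The summed sites of the members had a scaled log2 ratio of -0.57 (-0.68 to -0.47) in ESCs and -0.48 (-0.61 to -0.35) in NPCs.

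In ESCs the median of the 41 members compared was -0.42, against 0.04 for all 6518 genes, and 35 of the 41 were below 0, against 47.7% of all genes. In NPCs the median of 33 members was -0.32, against -0.04 for all 5274 genes, and 25 were below 0, against 52.5%. Of the 33 members compared in both cell types, 22 were below 0 in both and none was above 0 in both, against 29.3% and 28.3% of the 4781 genes compared in both. Few members were past the limits. In ESCs 5 of 41 were at or below -1, where 5.45% of all genes were, and 0 were at or above 1, where 6.84% were. In NPCs 3 of 33 were at or below -1, against 7.36%, and 0 at or above 1, against 5.76%.

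Chromosome 11 as a whole was lower in ΔZF1. The median of all its genes was -0.47 in ESCs and -0.61 in NPCs, against 0.07 and 0.00 on the other chromosomes. Its members had medians of -0.56 (9 genes) and -0.42 (8 genes), on both sides of the chromosome's own. ΔZF1 and WT are different clones, and clone and mutation cannot be told apart. Off chromosome 11 the members were still lower: their median was -0.39 (32 genes, 26 below 0, against 44.2% of all genes) in ESCs and -0.30 (25 genes, 18 below 0, against 48.9%) in NPCs.

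The lowest in ESCs were Psme2, a PA28 subunit, with 18 sites in WT and 2 in ΔZF1 and a scaled log2 ratio of -1.68 (-4.15 to -0.24), Psme4 at -1.18 (-1.47 to -0.90), Psmb2 at -1.14 (-2.16 to -0.31), Psma1 at -1.09 (-1.99 to -0.34) and Psmd14 at -1.07 (-1.67 to -0.53). Psmc6, just inside the limit, was at -0.99 (-1.65 to -0.42). None of the 5 genes past the limit stayed past it in every alternative: on exonic sites alone Psme4 was at -0.45, Psmd14 at -0.51 and Psma1 at -0.88, with sites at or above the median score Psmb2 was at -0.48, and at uridine sites Psme2 was at -0.72. The highest were Psmd10 at 0.49 (-0.74 to 1.64), Psmb5 at 0.34 (-0.95 to 1.51) and Psmd6 at 0.29 (-0.45 to 0.98), none of whose intervals excludes 0.

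In NPCs the lowest were the alpha subunits Psma7 at -1.34 (-3.08 to -0.09) and Psma5 at -1.27 (-2.58 to -0.25) and the lid subunit Psmd13 at -1.19 (-2.22 to -0.33). On exonic sites alone Psma7 was at -0.90, inside the limit. The highest were Psme3 at 0.50 (-0.22 to 1.21), Psmd4 at 0.39 (-0.50 to 1.25) and Psmc6 at 0.37 (-0.33 to 1.06). Psmb2, Psme4, Psma1 and Psmd14, past the limit in ESCs, were at -0.94, -0.81, -0.78 and -0.30 here, and Psme2 had too few sites to be compared. Psmc6 was near the bottom in ESCs and near the top in NPCs, a difference that was not tested.

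**Figure D5:**
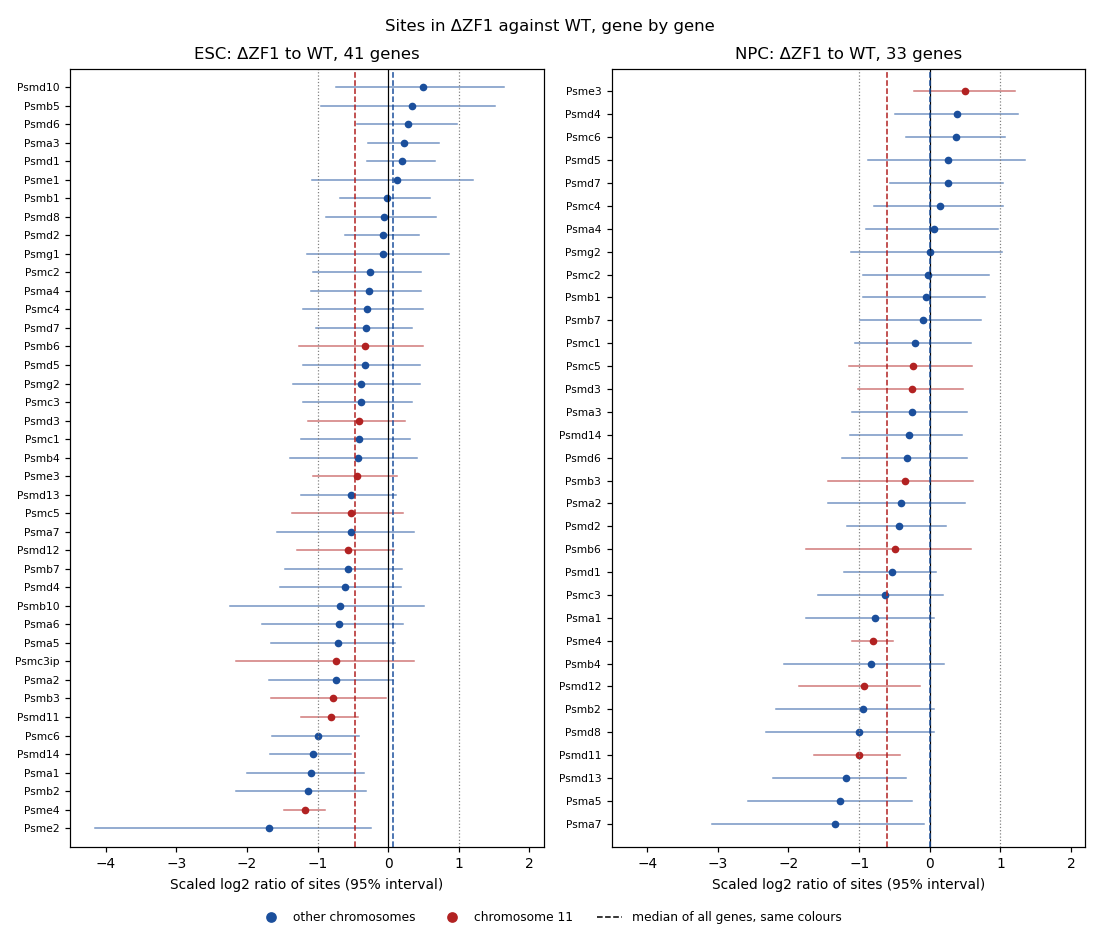
Scaled log2 ratio of sites in ΔZF1 to WT for each member with 20 or more sites over the 2 lists, in ESCs (left, 41 genes) and NPCs (right, 33 genes), with 95% intervals of counting error; dotted lines mark 1 and -1, and dashed lines the median of all genes on chromosome 11 (red) and elsewhere (blue). Most points lie left of the blue line and few intervals clear 0.

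Of the chromosome 11 members in ESCs, Psmd11 was at -0.82 (-1.23 to -0.43), Psmb3 at -0.78 (-1.66 to -0.03), Psmc3ip at -0.74, Psmd12 at -0.56, Psmc5 at -0.52, Psme3 at -0.44, Psmd3 at -0.41 and Psmb6 at -0.32, and the intervals of the last 6 hold 0. In NPCs Psmd11 was at -0.998 (-1.64 to -0.42), just inside the limit, Psmd12 at -0.93 (-1.86 to -0.14) and Psme4 at -0.81 (-1.10 to -0.53). Psmb6 was at -0.49, Psmb3 at -0.35, Psmd3 at -0.25 and Psmc5 at -0.23, with intervals that hold 0.

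By role, the summed scaled log2 ratio in ESCs was lowest for the activators, at -1.04 (-1.29 to -0.79), which is chiefly Psme4. The lid was at -0.60 (-0.82 to -0.38), the ATPases at -0.59 (-0.90 to -0.29), the beta ring at -0.51 (-0.83 to -0.19) and the alpha ring at -0.41 (-0.70 to -0.13). The non-ATPase base was at -0.06 (-0.39 to 0.27). In NPCs the lid was at -0.64 (-0.93 to -0.36), the activators at -0.61 (-0.87 to -0.35), the alpha ring at -0.60 (-0.99 to -0.21), the beta ring at -0.55 (-0.96 to -0.14), the non-ATPase base at -0.33 (-0.74 to 0.09) and the ATPases at -0.10 (-0.44 to 0.24). The inhibitor Psmf1 went the other way in NPCs, with 7 ΔZF1 sites against 1 in WT and a ratio of 3.39 (0.76 to 6.03), below the 20 sites asked of a single gene. In ESCs it was at 0.39 (-1.04 to 1.82). The chaperones of the 19S base were at -0.24 and -0.02 (ESCs, NPCs), those of the core at -0.27 and -0.34 and the induced catalytic subunits at -0.26 and -0.73, with intervals that hold 0. The intervals of the activators, the lid and both rings of the core thus lay below 0 in both cell types, and that of the ATPases in ESCs. In NPCs too the activators are chiefly Psme4, with 351 of 399 WT and 133 of 174 ΔZF1 sites. There Psme3 held 32 WT and 30 ΔZF1 sites, Psme2 held 11 and 4, and Psme1 held 5 and 7. The activator sum without Psme4 was not computed.

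In ESCs the ratio to WT was lower at uridine than at other bases. ESC ΔZF1 held 0.256 times (0.231 to 0.284) the uridine sites of ESC WT and 0.498 times (0.447 to 0.556) the sites at other bases. In NPCs the values were 0.439 (0.392 to 0.491) and 0.557 (0.478 to 0.648), with intervals that overlap. At uridine sites alone the scaled log2 ratio was -0.68 (-0.83 to -0.54) in ESCs and -0.47 (-0.63 to -0.31) in NPCs, where it was -0.48 over all sites. On exonic sites alone the scaled log2 ratio was -0.43 (-0.56 to -0.31) in ESCs and -0.24 (-0.40 to -0.08) in NPCs.

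The positions of ΔZF1 and WT sites were compared within each cell type. In ESCs 42.1% (39.0 to 45.3) of the members' ΔZF1 sites were within 5 nt of a WT site, against 25.7% of ΔZF1 sites overall and 4.17% after the WT sites were shifted by 500 and 1000 nt. For NPC ΔZF1 sites the values were 21.9% (18.96 to 25.1), 13.8% and 2.03%. It was 52.8% for exonic and 15.4% for intronic sites in ESCs, and 30.3% and 4.05% in NPCs. ESC WT is the longer list, and a longer list offers more sites to lie near. Exons also offer more, with 25.2 ESC WT sites per kb of coding exon against 1.10 per kb of intron. A shift of 500 or 1000 nt can move an exonic site into an intron. The shifted shares, here and below, therefore do not allow for the density of sites in exons.

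The comparison of UV with noXL libraries asks how far the sites exceed the background. Scaled to list size, the members' summed log2 ratio of WT to noXL was 0.34 (0.23 to 0.46) in ESCs and 0.30 (0.15 to 0.44) in NPCs. The median member was at 0.53 in ESCs (37 genes) and 0.54 in NPCs (32 genes), against 0.02 and 0.03 for all genes. Off chromosome 11 the sums were 0.55 (0.39 to 0.71) and 0.76 (0.54 to 0.98), and on it 0.09 (-0.08 to 0.26) and -0.14 (-0.34 to 0.06). On chromosome 11, Psme4 and Psmd11 hold most member sites, and the median member there was at 0.24 (9 genes) and 0.23 (8 genes), against 0.01 and 0.07 for all genes of the chromosome.

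In ESCs 6 of 37 members were at or above 1, where 8.12% of all genes were: Psmc3ip at 2.02, Psmc6 at 1.76, Psmb2 at 1.19, Psma5 at 1.18, Psma1 at 1.15 and Psmd6 at 1.08. None was at or below -1, where 6.60% of genes were. The lowest were Psmd4 at -0.66, Psmb3 at -0.45 and Psma2 at -0.44, with intervals that hold 0, and Psmd11 at -0.43 (-0.76 to -0.09). In NPCs 9 of 32 were at or above 1, where 10.5% of all genes were. Psmd7 and Psma5 were at 2.10, Psma1 at 1.67, Psmb4 at 1.41, Psmc3 at 1.37, Psmc6 at 1.19, Psmd13 at 1.18, Psmd8 at 1.09 and Psmc4 at 1.03, with 2 to 7 noXL sites behind each. The intervals of Psmd8 (-0.12 to 2.82) and Psmc4 (-0.19 to 2.76) hold 0. None was at or below -1, against 6.51% of genes, and the lowest were Psmd11 at -0.92 (-1.37 to -0.47), Psmb3 at -0.24 and Psme4 at -0.20. Psma1, Psma5 and Psmc6 were past the limit in both cell types. Of the other chromosome 11 members, Psmb6, Psme3, Psmd12, Psme4, Psmc5 and Psmd3 ranged from -0.18 to 0.70 in ESCs, and Psmc5, Psme3, Psmd12, Psmb6 and Psmd3 from 0.18 to 0.93 in NPCs.

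A minority of the WT sites lay near noXL sites: 9.01% (7.99 to 10.1) of member sites in ESC WT and 5.80% (4.71 to 7.12) in NPC WT were within 5 nt of one, close to the 8.40% and 6.26% of all sites. After shifting the noXL sites it was 1.51% and 0.85%. In ESC WT it was 6.95% at uridines and 12.8% at other bases.

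The members' share of the ΔZF1 lists was somewhat below their share of the noXL lists. The summed scaled log2 ratio of ΔZF1 to noXL was -0.23 (-0.37 to -0.09) in ESCs and -0.18 (-0.35 to -0.02) in NPCs. On exonic sites it was 0.06 (-0.12 to 0.24) and 0.40 (0.17 to 0.63), so the direction depended on the sites counted, and the ESC interval holds 0. With chromosome 11 left out of the members and of the scaling it was 0.09 (-0.09 to 0.28) and 0.35 (0.11 to 0.58). At uridine sites alone it was -0.25 (-0.49 to -0.02) and -0.07 (-0.35 to 0.20). In ESCs 1 of 29 members was at or above 1, against 7.86% of all genes, and 4 at or below -1, against 6.56%. Without the scaling to list size the balance turned, to 4 at or above 1 and 0 at or below -1. Psmd6 was at 1.36 (0.28 to 2.78), followed by Psma3 at 0.82 and Psmc6 at 0.77. Psmd4 was at -1.27, Psmd11 at -1.24, Psmb3 at -1.23 and Psma2 at -1.18, all with intervals below 0. In NPCs 4 of 21 were at or above 1, against 7.19%, and 2 at or below -1, against 8.03%, or 8 and 1 without the scaling. Psmd7 was at 2.35, Psmc6 at 1.56, Psme3 at 1.37 and Psmc4 at 1.18, and Psmd11 at -1.92 (-2.57 to -1.32), Psme4 at -1.005 (-1.33 to -0.68) and Psmb3 at -0.59. Of the members at or below -1, Psmd11 and Psmb3 in ESCs and Psmd11 and Psme4 in NPCs lie on chromosome 11. Of all genes of that chromosome, 24.6% in ESCs and 26.4% in NPCs were at or below -1. The noXL controls came from the WT clone, so this comparison also sets one clone against another.

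The comparison of NPCs with ESCs asks whether the contacts changed with differentiation. The summed scaled log2 ratio of NPC WT to ESC WT was -0.02 (-0.11 to 0.07), and without Psme4 it was -0.11 (-0.21 to -0.0053), an interval that no longer holds 0. The median of 42 members was 0.07 and that of all genes 0.04. None of the 42 was at or above 1, where 11.5% of all genes were, and none at or below -1, where 10.4% were.
The lowest were Psmd14 at -0.89 (-1.45 to -0.39), Psma6 at -0.77 (-1.86 to 0.13) and Psmg1 at -0.75 (-2.06 to 0.30), and the highest Psmb5 at 0.68 (-0.47 to 1.79), Psmd10 at 0.55 (-0.64 to 1.68) and Psmg3 at 0.52 (-0.73 to 1.69). Psmc6, at -0.66 (-1.23 to -0.14), and Psmd11, at -0.45 (-0.82 to -0.10), also had intervals below 0. Psme4, at 0.30 (0.10 to 0.49), was the only member whose interval lay above 0. The other chromosome 11 members ran from -0.43 in Psme3 to 0.28 in Psmd3.

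In the noXL lists Psme4 moved the same way by more, with 178 sites in NPCs and 158 in ESCs and a scaled log2 ratio of 0.74 (0.43 to 1.04). Psmc1 was at 0.83 (-0.38 to 2.09) and Psmc2 at 0.69 (-0.50 to 1.90). Psmd4 at -1.27 (-2.69 to -0.18) and Psma2 at -1.09 (-2.51 to 0.02) were the 2 of 19 members at or below -1, where 12.3% of all genes were, and Psmc3 was next at -0.85. None was at or above 1, where 11.1% were. The summed ratio was 0.02 (-0.14 to 0.18), but it rested on Psme4: without that gene it was -0.24 (-0.43 to -0.05), and without chromosome 11 -0.31 (-0.55 to -0.07).

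Positions were shared between cell types as well. Of the NPC WT sites, 42.8% (40.3 to 45.4) were within 5 nt of an ESC WT site, against 29.3% of all NPC WT sites and 3.88% after shifting. The share was 54.7% in exons and 16.1% in introns. Over all lists the members had 6220 different positions in 47 genes. Of these, 345 were in both WT lists and 75.7% (70.9 to 79.9) of them were uridines. The 1141 positions called only in noXL were uridines in 27.3% (24.8 to 29.9) of cases. Both noXL lists shared 10 positions. The longest run of adjacent called nucleotides was 7 nt in ESC WT, 4 nt in NPC WT and 3 nt in ESC ΔZF1, against 2 nt in NPC ΔZF1 and in both noXL lists. The 7-nt run lies in an intron of Psmb11, and both noXL lists have a site inside it.

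Genes that serve the proteasome but are outside the name rule were read for context. Of 26 listed, 24 were in the annotation under the listed symbol. Their median scaled log2 ratio of ΔZF1 to WT was 0.07 in ESCs (24 genes) and 0.03 in NPCs (23 genes), near that of all genes and above the members' -0.42 and -0.32. In ESCs Nfe2l2, a transcription factor of the oxidative stress response that can induce proteasome genes, was at 1.26 (0.64 to 1.90), and Ecpas, an adaptor of the 26S particle, at -1.67 (-2.67 to -0.87), with 74 sites in WT and 11 in ΔZF1. In NPCs Nfe2l2 was at 1.09 (0.05 to 2.21). Ecpas was at 0.84 (0.31 to 1.37) there, opposite to ESCs. In NPC WT against ESC WT, Sem1, a small lid subunit, was at 1.38 (0.45 to 2.38). The 4 genes with most ESC WT sites were the shuttle factor Rad23b with 275, the deubiquitinase Usp14 with 237, the ubiquitin ligase Ube3a with 142 and the protease Ddi2 with 89. In ESC ΔZF1 they held 143, 113, 106 and 47.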

How the data were processed

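Mouse CTCF iCLIP2 libraries were analysed from 6 lists of crosslinked nucleotides, 1 per group. The authors used Flexbar for trimming, STAR for alignment to mm10, UMI-tools to remove duplicates and, on the pooled libraries of a group, PureCLIP to call sites; versions are not given in the sources used here. The deposited score of a site is PureCLIP's own and is not scaled to depth, so it was used for ranks within a list, and for a minimum of 3.02 (the median over all lists) in 1 alternative. Depth is unknown.

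Sites were assigned to GENCODE M21 genes by strand, with coding exons ranked first, then UTRs (3′ before 5′), other exons and introns. Bases were read from GRCm38. Python 3.11.15, numpy 2.4.6, pandas 2.3.3, scipy 1.17.1 and pysam 0.24.0 were used. Ratios used a pseudocount of 1, a minimum of 20 sites in both lists together and limits of 1 and -1. Scripts were tested on simulated lists.

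Members and lists were chosen with earlier results of these data known. Named are the 8 members with most ESC WT sites, those with 0 sites, all on chromosome 11, the 3 highest and 3 lowest ratios per comparison, all past a limit, the pathway genes past a limit in ΔZF1 to WT or NPC to ESC WT, the 4 of these with most sites, and Ctcf. Other members are named by role after their values were seen. Some pathway genes that this rule names are not reported here.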

Additional observations from a re-analysis of the deposited data

How the results depend on the processing

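The summed ratios, counts past the limits, uridine and exon shares, shared positions and the ratios of the members past a limit in ΔZF1 to WT were recomputed with 1 choice changed at a time. The role sums, splice site shares, densities, score percentiles, uridine profile and pathway genes were not. Leaving out chromosome 11 removed it from the scaling as well. No paired analysis was possible because each group had its libraries pooled ahead of site calling. A library could not be left out either. Of 132 alternative values, 62 stayed within the interval of the reported value (or, for counts, within 1.5 times), 63 moved outside it and 7 turned the direction of a ratio whose interval had excluded 0. NPC noXL to ESC noXL, at 0.02 with an interval that holds 0, kept its sign in 1 of 5 scaled alternatives. The causes were not tested. The scaled ratio of ΔZF1 to WT stayed below 0, and that of WT to noXL above 0, in both cell types under every scaled alternative. The ranges were -0.68 to -0.43 (ESCs) and -0.64 to -0.24 (NPCs) for ΔZF1 to WT, and 0.37 to 0.60 and 0.40 to 0.76 for WT to noXL. Most single genes had few sites, and their intervals are wide.

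With uridine sites alone, ΔZF1 to WT was -0.68 in ESCs. With exonic sites alone these ratios were -0.43 (ESCs) and -0.24 (NPCs), those of WT to noXL 0.49 and 0.64, and NPC to ESC noXL -0.18. ΔZF1 to noXL turned to 0.055 (ESCs) and 0.40 (NPCs). Without chromosome 11, ΔZF1 to WT was -0.46 in ESCs, WT to noXL 0.55 and 0.76 and NPC to ESC noXL -0.31. ΔZF1 to noXL turned to 0.093 and 0.35. Without Psme4, ΔZF1 to WT was -0.46 in ESCs, NPC WT to ESC WT -0.11, WT to noXL 0.50 in NPCs, NPC to ESC noXL -0.24 and ΔZF1 to noXL -0.091 (ESCs), with a turn to 0.11 in NPCs. With sites at or above the median score of all lists, ΔZF1 to WT was -0.64 in NPCs, the 2 WT to noXL ratios 0.60 and 0.55 and ΔZF1 to noXL 0.00 (-0.0026) in ESCs. With no scaling to list size, ΔZF1 to WT was -1.55 and -1.07 (ESCs, NPCs), WT to noXL 1.85 and 1.47, NPC to ESC -0.92 for WT and -0.54 for noXL, and ΔZF1 to noXL turned to 0.30 and 0.40.

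Members past the limits rose with no scaling from 5 to 35 for ΔZF1 to WT in ESCs and from 3 to 15 in NPCs, from 6 to 36 and from 9 to 29 for WT to noXL, from 0 to 15 for NPC WT to ESC WT and from 2 to 7 for NPC noXL to ESC noXL. For ΔZF1 to noXL the counts above and below went from 1 and 4 to 4 and 0 in ESCs and from 4 and 2 to 8 and 1 in NPCs. With a minimum of 10 sites they were 7 for ΔZF1 to WT in NPCs (1 above and 6 below), 11 and 14 for WT to noXL (1 of the 14 below), and 1 for NPC WT to ESC WT.

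With sites at or above the median score, uridine was 68.5% (ESC WT) and 72.8% (NPC WT), and exons held 74.6% (ESC WT), 74.9% (ESC ΔZF1) and 79.6% (NPC WT). With exonic sites alone, uridine was 23.2% in NPC noXL. Without Psme4 the exon share was 70.6% and 57.6% with WT and without UV in ESCs and 82.0%, 75.4% and 59.9% with WT, ΔZF1 and without UV in NPCs. With exons of protein-coding transcripts it was 60.1%, 67.9% and 46.2% in ESC WT, ΔZF1 and noXL and 65.3% and 63.9% in NPC WT and ΔZF1. At uridine sites it was 47.0% in ESC noXL and 36.1% in NPC noXL.

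Counting only the same nucleotide as shared gave 22.8% for ΔZF1 near WT in ESCs and 12.8% in NPCs, 2.37% and 1.45% for WT near noXL and 23.8% for NPC WT near ESC WT. Within 50 nt the shares were 75.5% and 51.0%, 31.0% and 23.5%, and 76.3%. At or above the median score, NPC ΔZF1 near NPC WT was 16.8%.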

Other observations

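Antisense sites in the bodies of the proteasome genes and outside other genes were rare. In ESCs there were 2 with WT, 1 with ΔZF1 and 3 without UV, and in NPCs 2, 3 and 5. The UV lists thus held no more of them than the noXL lists of the same cell type.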
